A study of Mus musculus with 10 samples.

Results

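The integrated stress response genes examined here are the activating transcription factor Atf4, the transcription factors Ddit3 and Atf3, and 7 genes that respond to them, Trib3, Chac1, Sesn2, Ddit4, Asns, Psat1 and Slc7a11. All probe sets that the array annotation assigns to these 10 symbols were taken, which gave 18 of 45037 probe sets without controls. Of the 18, 15 exceeded a log2 value of 4 on 5 or more of the 10 arrays and entered the comparison, and they cover 9 of the 10 genes among 10538 genes measured by 18567 kept probe sets. The genes were chosen by their known place in the pathway after differences between the genotypes in these arrays had been seen, those of Trib3 and Sesn2 among them, so the differences between genotypes are given as a description. The islets were those of 10 females, 5 of them Men1 heterozygotes (labelled hz) and 5 wildtype littermates (labelled wt), all aged 5 weeks and all of a strain labelled C57 on a 129 background. Men1 encodes menin, a tumour suppressor of endocrine cells, and the heterozygous mice keep a wildtype copy of it in every cell unless that copy is lost. About 100 islets of each mouse were pooled into 1 RNA sample and run on 1 array, so the replicates are separate mice. The Men1 allele itself and the promoter or line behind it are not described in the sources used here.

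In the integrated stress response, kinases that sense unfolded protein, lack of amino acids, haem shortage or viral RNA phosphorylate the translation factor eIF2. General translation then slows while Atf4 mRNA is translated more, so that ATF4 protein can change with little change of its mRNA. ATF4, with partners such as C/EBP proteins and CHOP (the product of Ddit3), turns on genes of amino acid uptake and synthesis, of glutathione turnover and of feedback on growth signalling. In beta cells, which make large amounts of proinsulin, the pathway is known for its part in adaptation to secretory load and, when prolonged, in cell death.

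ATF4 binds with C/EBP proteins at composite sites whose core reads TGATGNAA. In windows of 300 bases (250 before and 50 after an annotated start, RefSeq, GRCm38.p6) this core was searched on both strands. It occurred in 5 of the 10 genes (Asns, Atf3, Chac1, Slc7a11 and Trib3), beside 4.51% of 27025 genes with a window. The longer form TGATGNAAC, which contains the core, occurred in 2 of the 10 (Asns and Chac1), beside 0.870% of the 27025 genes, and the cyclic AMP element TGACGTCA, which shares no such core, in 0 of the 10, beside 2.03%. A match is a description of letters and not a site shown to be bound. The following sequences are those of the genes on which the results on variation between mice turn, the first 4 as the 250 bases before the start and Trib3 as 30 bases round its match, with matches to the core in capitals (TTNCATCA is its reverse complement). Counting the start base as 0, the matches begin at -23 in Asns, -193 in Chac1, -110 in Atf3 and 14 in Trib3. Psat1 holds no match in either of its annotated windows, and the upstream one is shown. The locations are chr6:7693210-7693459 (minus strand), chr19:15925060-15925309 (minus strand), chr2:119350992-119351241 (plus strand), chr1:191183334-191183583 (minus strand) and chr2:152344028-152344057 (minus strand).
Asns: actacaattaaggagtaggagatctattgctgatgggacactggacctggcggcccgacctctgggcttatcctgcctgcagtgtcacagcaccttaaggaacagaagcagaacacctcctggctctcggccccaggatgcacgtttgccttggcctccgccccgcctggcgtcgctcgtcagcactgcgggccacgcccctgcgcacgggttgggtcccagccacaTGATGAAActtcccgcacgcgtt
Psat1: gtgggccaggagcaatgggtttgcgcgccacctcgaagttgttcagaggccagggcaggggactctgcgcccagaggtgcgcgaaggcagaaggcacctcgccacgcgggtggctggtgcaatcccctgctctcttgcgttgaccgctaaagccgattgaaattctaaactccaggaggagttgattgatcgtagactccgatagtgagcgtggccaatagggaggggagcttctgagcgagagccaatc
Chac1: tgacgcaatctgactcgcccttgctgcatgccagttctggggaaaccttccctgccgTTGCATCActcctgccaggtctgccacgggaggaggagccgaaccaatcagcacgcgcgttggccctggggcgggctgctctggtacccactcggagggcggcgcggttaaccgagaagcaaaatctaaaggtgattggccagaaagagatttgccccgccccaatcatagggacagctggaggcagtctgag
Atf3: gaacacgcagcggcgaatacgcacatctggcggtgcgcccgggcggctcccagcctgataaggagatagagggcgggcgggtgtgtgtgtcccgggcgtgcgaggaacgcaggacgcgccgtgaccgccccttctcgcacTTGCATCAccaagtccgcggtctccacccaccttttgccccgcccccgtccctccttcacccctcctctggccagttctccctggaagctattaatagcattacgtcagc
Trib3: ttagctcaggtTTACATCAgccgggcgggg

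Values are log2 expression. A difference is the heterozygous mean less the wildtype mean in log2 units, with its SE from limma, and means are followed by ± SD (n = 5 mice per genotype). Array medians lay between 3.28 and 3.40. Men1, the targeted gene, read 6.82, 6.09, 6.56, 6.44 and 6.16 in heterozygous mice 1 to 5, against 7.21, 7.18, 6.83, 6.96 and 6.25 in wildtype mice 1 to 5, at its 1 kept probe set (means 6.42 ± 0.30 and 6.89 ± 0.39). Wildtype mouse 5 lay below heterozygous mice 1, 3 and 4, and the other wildtype mice lay above every heterozygous mouse. The probe set's position relative to the altered part of the gene is not given here, so whether it can check the labels is not known, and the Ddit3, Chac1 and Ddit4 differences are also given without wildtype mouse 5. Heterozygous arrays 3 and 4 had the widest gap between the 3' and 5' control probe sets of actin and Gapdh (3.56 and 3.59), above the other heterozygous arrays (3.23 to 3.32) and the wildtype arrays (3.21 to 3.37). Lymphocyte markers were uneven. Their mean over 6 measured of 14 listed genes ranged from 4.66 to 7.58 in heterozygous and from 4.81 to 5.84 in wildtype islets. The defining islet markers were present, with a beta cell marker mean (9 of 13 measured) of 12.27 to 12.87 in heterozygous and 12.11 to 12.92 in wildtype islets. In such bulk samples fewer cells of a type and less RNA per cell cannot be told apart.

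No gene of the response passed the test between genotypes, and the groups overlapped at every probe set. With limma and Benjamini-Hochberg adjustment over all kept probe sets, 0 of 15 probe sets reached an adjusted p under 0.05, beside 0% of the 18567. Without adjustment 2 of 15, at Trib3 and Sesn2, had p under 0.05, beside 760 (4.09%) of all. Groups without overlap were found at 0 of 15 probe sets, beside 0.7% of all. Taking the brightest kept probe set per gene, 7 of 9 genes had a higher heterozygous mean and 2 a lower one, beside 56.4% of all kept probe sets higher. The median difference of the 9 was 0.21, beside 0.022 over all kept probe sets. These numbers describe genes chosen with this contrast in view, and nothing is read from them.

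**Figure D1:**
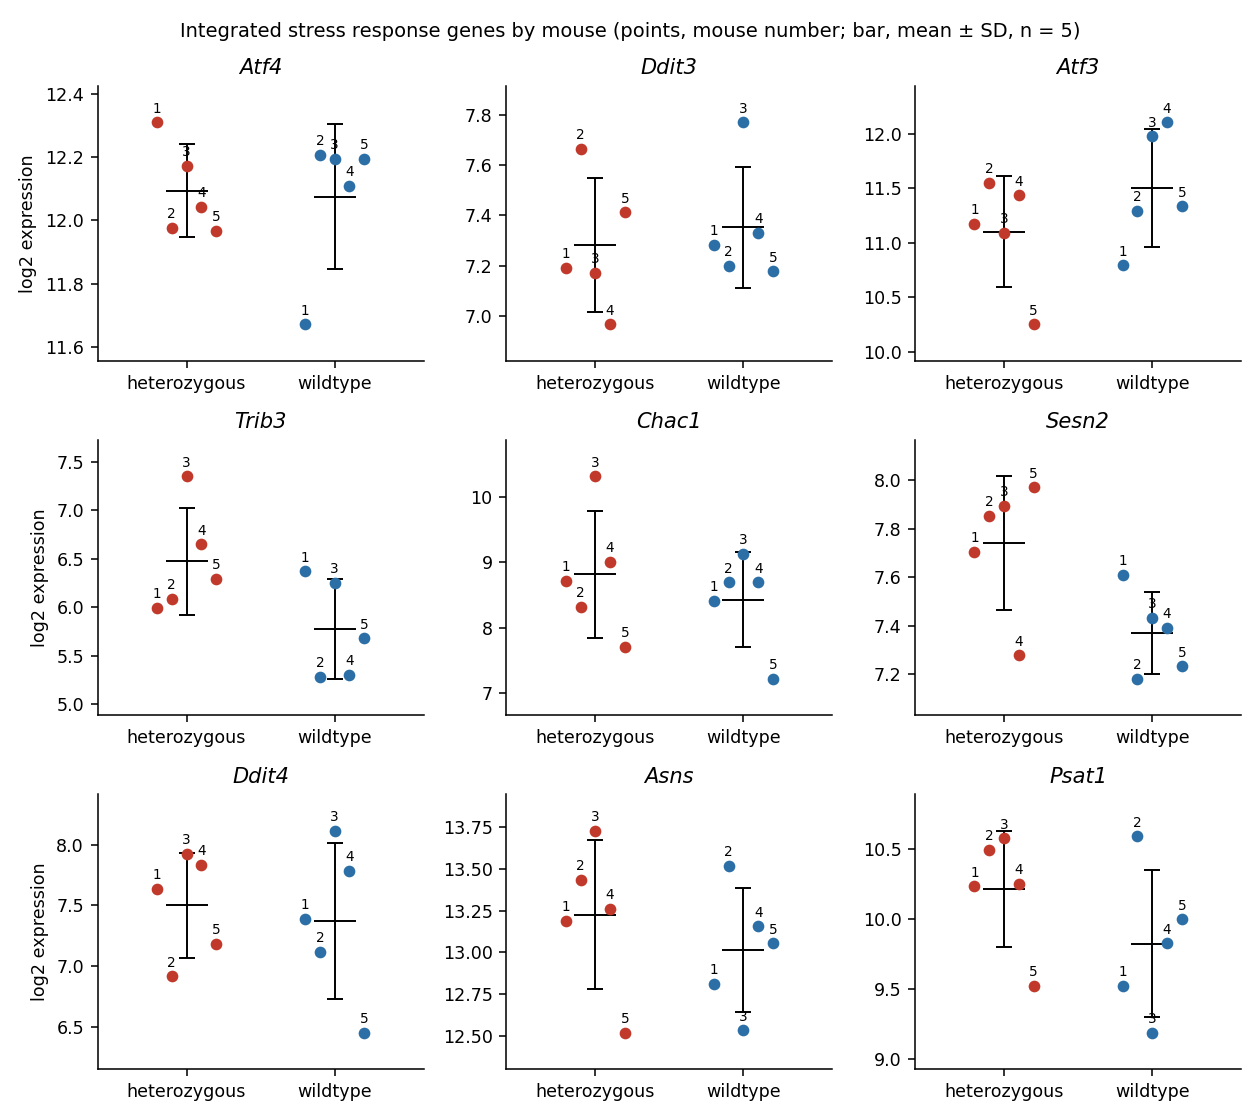
Log2 expression (y axes) of the 9 measured genes at their brightest probe set, heterozygous mice on the left and wildtype on the right of each panel. Points are mice with their replicate number and bars show mean ± SD (n = 5). The genotypes overlap in every panel, and heterozygous mouse 3 is the highest point for Trib3, Chac1 and Asns.

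None of the 3 transcription factors passed the test, and Atf3 had the widest difference of the 3 (-0.40). Atf4, the central activator, was measured by 3 probe sets. The brightest read 12.31, 11.98, 12.17, 12.04 and 11.97 in heterozygous mice 1 to 5, against 11.67, 12.21, 12.20, 12.11 and 12.19 in wildtype mice 1 to 5. All mice but wildtype mouse 1 lay within a narrow band, and the means were 12.09 ± 0.15 and 12.07 ± 0.23 (difference 0.019, SE 0.13, 95% interval -0.26 to 0.29, and -0.082 without wildtype mouse 1). The next probe set averaged 10.05 ± 0.26 in heterozygous islets and 10.33 ± 0.27 in wildtype islets (-0.27, SE 0.16), and the dimmest averaged 5.11 ± 0.22 and 5.32 ± 0.43 (-0.21, SE 0.20). Thus the probe sets of Atf4 did not share a sign, and over the 10 arrays the brightest correlated with the other 2 at r = 0.23 and r = 0.26 (a description, n = 10). The brightest carries the _x_at suffix, which the array's maker gives to probe sets with probes that can match other sequences. The brightest probe sets of Trib3 and Asns carry the same suffix.

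Ddit3, which encodes CHOP, the factor tied to death under prolonged stress, read 7.19, 7.67, 7.17, 6.97 and 7.41 in heterozygous mice 1 to 5, against 7.28, 7.20, 7.77, 7.33 and 7.18 in wildtype mice. The highest mouse was wildtype 3 and the lowest heterozygous 4, with the rest mixed (-0.071, SE 0.15, -0.11 without wildtype mouse 5, 0.034 without wildtype mouse 3, and -0.24 without heterozygous mice 2 and 5). Its other probe set lay above 4 on 1 array only and was not compared. Atf3, a stress-induced repressor that also answers to growth factors and handling, read 11.17, 11.55, 11.09, 11.43 and 10.25 in heterozygous mice, against 10.79, 11.29, 11.97, 12.10 and 11.33 in wildtype mice. Wildtype mice 3 and 4 were the highest and heterozygous mouse 5 the lowest (-0.40, SE 0.29, 95% interval -1.05 to 0.25). Without heterozygous mouse 5 the Atf3 difference was -0.19, without wildtype mouse 4 it was -0.25, and with the mean of immediate-early genes as a covariate it was -0.17.

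Trib3 and Chac1 are strongly induced by ATF4 and CHOP in many cells. Trib3 encodes a pseudokinase that restrains AKT and feeds back on ATF4. Its brighter probe set read 5.995, 6.08, 7.35, 6.65 and 6.29 in heterozygous mice 1 to 5, against 6.37, 5.28, 6.25, 5.30 and 5.68 in wildtype mice. Heterozygous mice 3 and 4 lay above every wildtype mouse and the other 3 did not, with means of 6.47 ± 0.55 and 5.78 ± 0.51 (0.70, SE 0.30, a 1.62-fold ratio with a 95% interval of 1.03 to 2.55). Those 2 mice are also the ones with the widest 3' to 5' gap. With that gap as a covariate the difference was 0.41, and without heterozygous mouse 3 it was 0.48. Both arrays with a wide gap are heterozygous, so gap and genotype cannot be fully told apart. The part of the gap in this difference and in those of the other genes was not tested. The dimmer Trib3 probe set, near the filter value, stood at 4.14 to 4.15 in 4 heterozygous mice and 5.23 in mouse 3, against 4.02 to 4.77 in wildtype mice. All but heterozygous mouse 3 and wildtype mouse 3 (4.77) lay between 4.02 and 4.17, so its difference of 0.13 (SE 0.23) rests on these 2 mice. With both probe sets averaged the Trib3 difference was 0.42.

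Chac1, an enzyme that breaks down glutathione, was the most variable of the 9 genes among mice of a genotype, with a residual SD of 0.85, higher than at 98.8% of kept probe sets. It read 8.72, 8.32, 10.31, 9.01 and 7.71 in heterozygous mice, against 8.41, 8.69, 9.12, 8.70 and 7.23 in wildtype mice. Heterozygous mouse 3 stood above all others and mouse 5 was the lowest of its genotype in both groups (0.39, SE 0.47, 95% interval -0.65 to 1.42). Without heterozygous mouse 3 the Chac1 difference was 0.012, without heterozygous mouse 5 it was 0.66, without wildtype mouse 5 it was 0.084 and with the 3' to 5' gap as a covariate it was 0.083. Without heterozygous mice 2 and 5, which had the highest lymphocyte marker means (7.58 and 6.94), it was 0.92.

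Sesn2 and Ddit4 encode inhibitors of the growth kinase mTORC1, sestrin 2 and REDD1, and both also respond to other stresses. The brighter Sesn2 probe set read 7.71, 7.85, 7.89, 7.28 and 7.97 in heterozygous mice, against 7.61, 7.18, 7.43, 7.39 and 7.23 in wildtype mice. Heterozygous mice 1, 2, 3 and 5 lay above every wildtype mouse and mouse 4 did not (7.74 ± 0.28 and 7.37 ± 0.17, difference 0.37, SE 0.14). The other Sesn2 probe set averaged 6.57 ± 0.042 in heterozygous islets and 6.57 ± 0.25 in wildtype islets (0.00063, SE 0.12, 95% interval -0.26 to 0.27), and r between the pair was 0.13 over the 10 arrays. With the stromal marker mean as a covariate the difference at the brighter probe set was 0.17. The stromal mean itself differed between the genotypes by -0.67, so the 2 cannot be fully told apart. Its part in the Sesn2 difference was not tested. Stromal markers ranged from 9.02 to 10.61 in heterozygous mice and from 9.86 to 10.65 in wildtype mice as a mean over all 13 listed genes, and as the log2 of their summed signal at 13.55 to 15.31 and 14.51 to 15.38. Ddit4 read 7.64, 6.91, 7.92, 7.84 and 7.18 in heterozygous mice, against 7.39, 7.11, 8.12, 7.79 and 6.45 in wildtype mice, with the genotypes interleaved (0.13, SE 0.31, from -0.10 without wildtype mouse 5 to 0.31 without wildtype mouse 3, and 0.43 without heterozygous mice 2 and 5).

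Asns and Psat1 make amino acids and Slc7a11 imports one. Asns, asparagine synthetase, read 13.19, 13.43, 13.73, 13.26 and 12.52 in heterozygous mice, against 12.81, 13.52, 12.53, 13.16 and 13.05 in wildtype mice (0.21, SE 0.23). Without heterozygous mouse 3 the Asns difference was 0.086 and without heterozygous mouse 5 it was 0.39, while without wildtype mouse 3 it was 0.091 and without wildtype mouse 2 it was 0.34. With the 3' to 5' gap as a covariate it was 0.067. Its second probe set differed by 0.088 (SE 0.27) and correlated with the first at r = 0.96. Psat1, phosphoserine aminotransferase of serine synthesis, read 10.23, 10.49, 10.57, 10.25 and 9.52 in heterozygous mice, against 9.52, 10.59, 9.18, 9.82 and 9.99 in wildtype mice (0.39, SE 0.27, and 0.23 without wildtype mouse 3). Its second probe set differed by 0.13 (SE 0.27), with r = 0.89 to the first. The order of mice was nearly the same for both genes, with heterozygous mouse 3 and wildtype mouse 2 high and heterozygous mouse 5 and wildtype mouse 3 low. Slc7a11, the cystine importer, was at background. Its probe sets lay above 4 on 0 and 2 of the 10 arrays, at 2.22 ± 0.076 and 3.62 ± 0.25 in heterozygous and 2.21 ± 0.027 and 3.57 ± 0.35 in wildtype islets, so no level was measured.

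**Figure D2:**
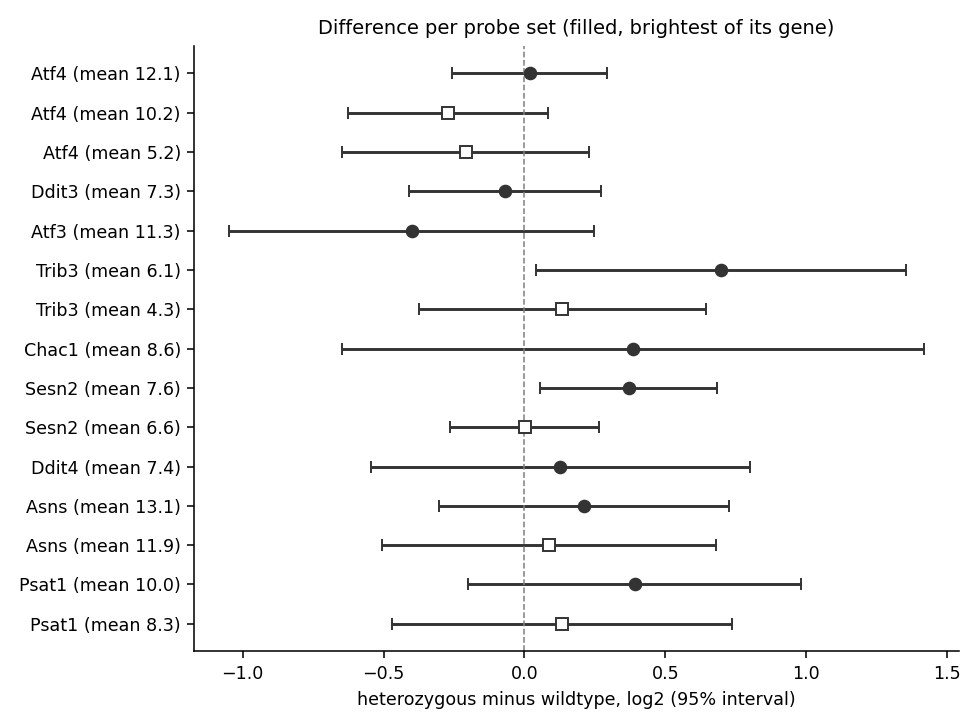
Heterozygous minus wildtype difference on the log2 scale (x axis) with its 95% interval for the 15 kept probe sets, each named by its gene and mean level. Filled circles are the brightest probe set of a gene and open squares the others. The points run from Atf3 at -0.40 to the brighter Trib3 probe set at 0.70. The intervals are unadjusted, no probe set passed the adjusted test, and the genes were chosen with the Trib3 and Sesn2 differences known, so whether an interval includes 0 is no test.

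Whether the genes move together was asked among mice of the same genotype, by removing the genotype mean of each gene and correlating the 36 pairs of the 9 genes over the 10 mice. The 9 genes did not all rise and fall together, though with 10 mice a pair that did not pass is not shown to vary apart. The median r was 0.096 and 20 of the 36 pairs were positive. Beside this, the median r of each gene with kept probe sets of other genes ran from -0.21 for Asns to 0.076 for Ddit3. Of the 36 pairs, 1 passed a permutation test with Benjamini-Hochberg adjustment over the pairs, that of Asns and Psat1 (r = 0.957, adjusted permutation p = 0.00036, Spearman's rho = 0.927, adjusted permutation p = 0.0122). The unadjusted p of this r was 1e-05, the smallest that 100000 permutations can give. These permutations ran over all 10 mice, although centred values are not freely exchangeable between genotypes. With exact permutation within genotype the adjusted p of Asns and Psat1 was 0.0075. Without the 2 mice farthest from the median of Asns, r was 0.899. The next pair was Chac1 and Ddit4 (r = 0.802, adjusted permutation p = 0.0900, rho = 0.891, adjusted permutation p = 0.0200), with r = 0.752 without the 2 mice farthest from the median of Chac1. Trib3 and Chac1 had r = 0.540 (adjusted permutation p = 0.701), and 0.229 without the 2 farthest mice, heterozygous 3 and wildtype 1. Atf4 mRNA had r between -0.41 and 0.46 with the other 8 genes, and Ddit3 had r = -0.021 with Trib3 and -0.053 with Chac1.

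**Figure D3:**
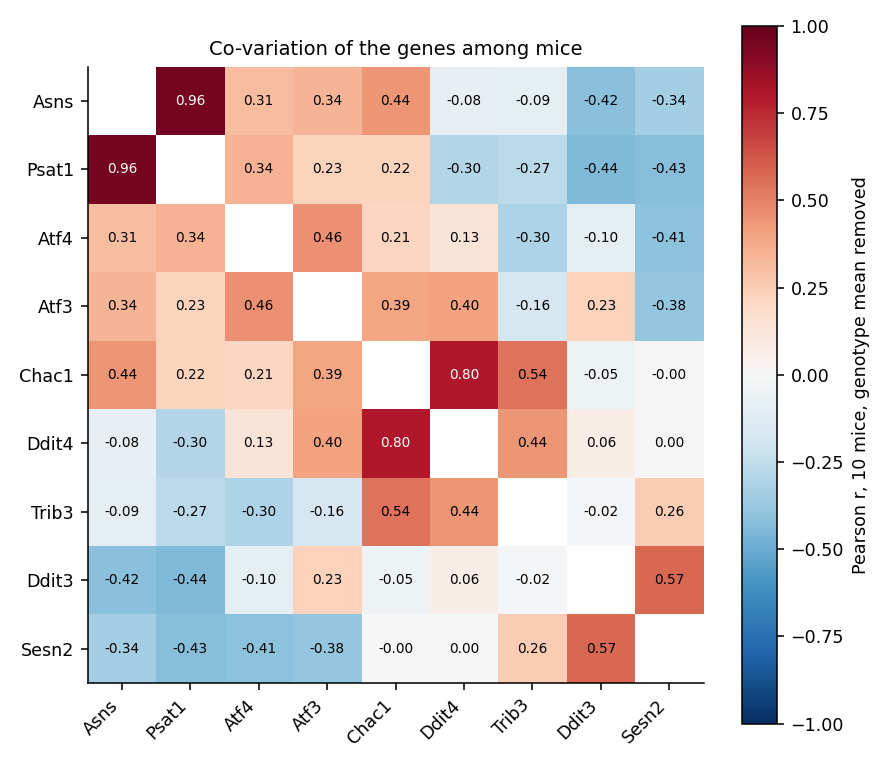
Pearson r between the 9 genes over 10 mice after the genotype mean of each gene was removed (colour scale from -1 to 1, values printed in the cells). Asns with Psat1 (0.96) and Chac1 with Ddit4 (0.80) are the darkest cells, and the median of the 36 pairs is 0.096.

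Asns and Psat1 correlated with the means of acinar and beta cell markers. Of 63 relations between the 9 genes and 7 sample measures (relations added after the values were seen), 5 passed a permutation test with Benjamini-Hochberg adjustment. The share of all kept probe sets that relate as strongly to these measures is not given here. Since Asns and Psat1 correlated at r = 0.957, their relations are not separate observations. Nor are the acinar and beta cell means separate measures. In each genotype the mouse with the lowest acinar mean had the highest beta cell mean. These were heterozygous mouse 5 (14.05 and 12.87) and wildtype mouse 3 (14.49 and 12.92). Against the acinar marker mean, r was 0.898 for Asns (adjusted permutation p = 0.00588, rho = 0.927, adjusted p = 0.0129) and 0.844 for Psat1 (adjusted permutation p = 0.0188, rho = 0.903, adjusted p = 0.0153), and 0.747 and 0.692 without the 2 farthest mice. Against the beta cell marker mean, r was -0.925 for Asns (adjusted permutation p = 0.00567, rho = -0.927, adjusted p = 0.0129) and -0.934 for Psat1 (adjusted permutation p = 0.00567, rho = -0.891, adjusted p = 0.0157), and -0.837 and -0.836 without the 2 farthest mice. Mice with a higher acinar and a lower beta cell marker mean had higher values of both. Acinar cells secrete digestive enzymes, and their markers (12 of 15 measured, several close to the highest value in the table, 17.58) had a mean of 14.05 to 14.80 in heterozygous and 14.49 to 14.79 in wildtype islets, with the log2 of the summed signal at 19.40 to 19.62 and 19.52 to 19.64. For beta cell markers the log2 of the summed signal was 17.43 to 17.66 in heterozygous and 17.40 to 17.74 in wildtype islets. After the acinar mean was also removed, the r of Asns and Psat1 was 0.842 (adjusted permutation p = 0.0180), and after the beta cell mean was removed instead it was 0.682 (adjusted permutation p = 0.302). Of 18565 probe sets of other genes, 49 were closer to Asns than Psat1 was.

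The fifth relation was that of Atf3 with the mean of 21 immediate-early genes, which are switched on within minutes by stimulation or handling of cells. Its r was 0.897 (adjusted permutation p = 0.0188), with rho = 0.770 (adjusted p = 0.164) and r = 0.648 without the 2 farthest mice. The immediate-early mean ran from 9.85 to 10.66 in heterozygous and from 9.93 to 10.80 in wildtype islets, with heterozygous mouse 5 and wildtype mouse 1 lowest, as for Atf3. Trib3 had r = 0.620 with the 3' to 5' gap (adjusted permutation p = 0.358, rho = 0.612, adjusted p = 0.515), and 0.432 without the 2 farthest mice. Sesn2 had r = -0.659 with the stromal marker mean (adjusted permutation p = 0.317, rho = -0.430, adjusted p = 0.872), and -0.080 without the 2 farthest mice. Against the lymphocyte marker mean, r was -0.697 for Chac1 (adjusted permutation p = 0.231) and -0.720 for Ddit4 (adjusted permutation p = 0.205), with rho = -0.576 (adjusted p = 0.624) and -0.745 (adjusted p = 0.186), and r = -0.642 and -0.665 without the 2 farthest mice.

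**Figure D4:**
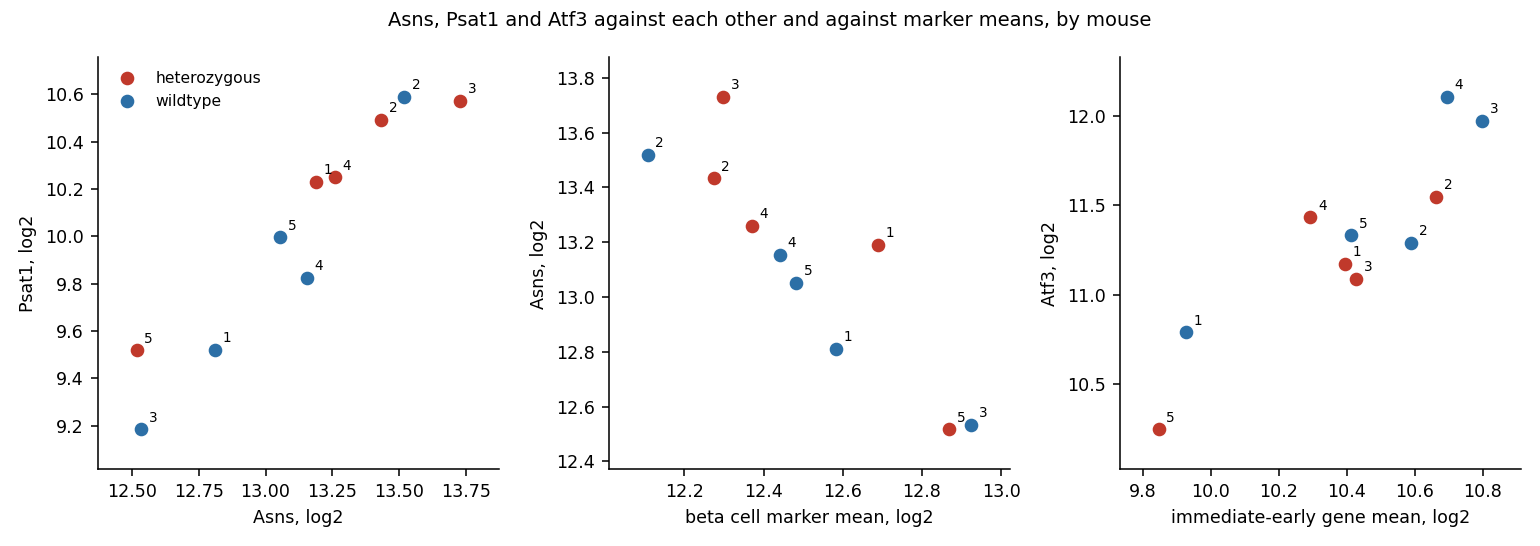
Log2 expression of Psat1 against Asns (left), Asns against the mean of 9 beta cell markers (middle) and Atf3 against the mean of 21 immediate-early genes (right), heterozygous mice in red and wildtype mice in blue, numbered by replicate. The values behind the panels give r = 0.957, -0.925 and 0.897 once genotype means are removed. At nearly equal Asns, heterozygous mouse 5 (12.52) has Psat1 at 9.52 and wildtype mouse 3 (12.53) has it at 9.18.

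By likeness to the mean of the 9 genes, each centred on its genotype mean and scaled to SD 1, the 5 closest other genes over the 10 mice were Gngt1 (r = 0.934), Pdk4 (0.933), Slc19a2 (0.931), Herpud1 (0.930) and Cdc42ep4 (0.921). The highest value of that mean was in heterozygous mouse 3 (0.80) and the lowest in heterozygous mouse 5 (-0.72). Wildtype mice ran from -0.45 to 0.47. The closest genes were searched over all kept probe sets, and Herpud1 was read here from a probe set that is not its brightest.

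Of 123 measured genes listed for the rest of the pathway and its neighbour arm, 0 passed in limma after adjustment over all probe sets. Without adjustment 4 had a limma p under 0.05 (3.25%, beside 4.09% of all kept probe sets). Heterozygous means were higher for 70 and lower for 53. Of 16 genes of the eIF2 kinases, phosphatases and exchange factor, 9 were higher (median 0.037). Gcn1, a co-activator of the amino acid sensing kinase, differed by 0.27 (SE 0.15), and Eif2ak4, that kinase, by 0.19 (SE 0.11). Of 8 partner factors 3 were higher (median -0.14), with Nfe2l2, the antioxidant factor NRF2, averaging 8.48 ± 0.26 in heterozygous islets and 8.81 ± 0.083 in wildtype islets (-0.34, SE 0.13) and Cebpb at -0.23 (SE 0.22).

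Of the metabolic targets none passed the test, and the share of higher heterozygous means, to be read beside the 56.4% of all kept probe sets, was not compared between lists. Of 13 serine, one-carbon and related enzymes 10 were higher (median 0.13), with Shmt2, mitochondrial serine hydroxymethyltransferase, at 0.28 (SE 0.19) and the transaminase gene Got1 at 0.27 (SE 0.15). Of 11 amino acid transporters 8 were higher (median 0.081). Slc1a4, a neutral amino acid transporter, averaged 8.50 ± 0.22 in heterozygous islets and 8.18 ± 0.24 in wildtype islets (0.33, SE 0.14), and Slc3a2, the heavy chain shared by several transporters, differed by 0.24 (SE 0.14). The genes of these 2 lists varied together with Asns among mice of a genotype and are not separate observations, with a median r of 0.77 for the enzymes (11 of 13 positive) and 0.78 for the transporters (9 of 11 positive), beside -0.21 over all kept probe sets, 0.74 for acinar markers (12 of 12 positive) and -0.75 for beta cell markers (0 of 9 positive). With Trib3 the median r was -0.11 for the enzymes and -0.080 for the transporters. The part of tissue mix in these values was not tested.

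Of 20 tRNA synthetase and export genes 11 were higher (median 0.018), with the glycyl-tRNA synthetase gene Gars at 0.17 (SE 0.084) and Farsa at -0.27 (SE 0.17). Of 27 genes listed as other targets of ATF4 or CHOP 11 were higher (median -0.026), with Ddr2, a collagen receptor, at -0.48 (SE 0.19) and Rassf1 at -0.38 (SE 0.20). Whether each gene of this list is a target, and in which direction it responds, was not checked. The stromal markers (fibroblast, pericyte and smooth muscle genes) had a lower heterozygous mean for 13 of 13 genes, and their part in the Ddr2 value was not tested. Of 30 genes of the XBP1 and ATF6 arms, which raise folding capacity in the endoplasmic reticulum, 18 were higher (median 0.033), with the co-chaperone gene Dnajc3 at 0.36 (SE 0.15) and the sensor gene Ern1 at 0.15 (SE 0.098). Of 21 immediate-early genes 5 were higher (median -0.13).

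**Figure D5:**
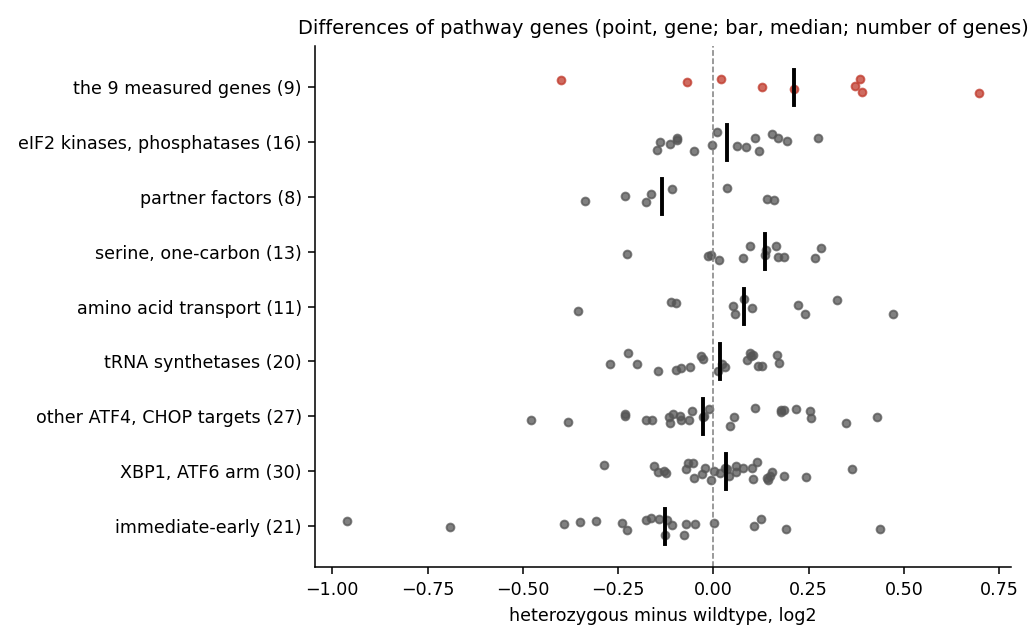
Heterozygous minus wildtype differences on the log2 scale (x axis) of single genes (points) by list, with the median as a bar and the number of genes in parentheses. The medians run from -0.14 for partner factors to 0.13 for serine and one-carbon enzymes, beside 0.21 for the 9 genes in the top row, and no point passed the test.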

How the data were processed

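The deposited table holds log2 values made by the authors with GCRMA, per the submitters' processing notes (version not given in the sources used here), from 100 ng of RNA amplified over 2 cycles per the labels' protocols. GCRMA shrinks dim values to a shared low level, and 2-cycle amplification shortens transcripts, so probe sets far from the 3' end can lose signal. Symbols came from the platform annotation (34958 probe sets with 1 symbol, 932 with several, 9211 unnamed), matched to RefSeq of GRCm38.p6.

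Control probe sets (64) were left out, and a probe set was kept where 5 or more of 10 arrays exceeded 4 in log2. Genotypes were compared with limma 3.58.1 (lmFit, eBayes, no covariates, two-sided; R 4.3.3), with Benjamini-Hochberg adjustment over 18567 probe sets. The fit was also run on simulated data with independent normal noise at each probe set. Genes here vary together, so that run does not show which differences these arrays could detect, and nothing is read from it. A gene was read from its kept probe set of highest mean, except in the searches for closest genes. Those searches ran over all kept probe sets, so a gene there can be read from a dimmer probe set. Correlations used genotype-centred values and 100000 permutations over all 10 mice (two-sided, numpy 2.4.6, Python 3.11.15). Permutation within genotype was run for the pairs of members only. The number of arrays limits the precision.

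The members and gene lists were chosen with earlier results of these data known. Named were the 10 genes, Men1, the 2 genes of smallest p per pathway list, and the 5 most like the mean of the 9 measured. Replicate numbers were treated as names: the deviations of same-numbered mice correlated from -0.28 to 0.11, so they do not pair the mice.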

Additional observations from a re-analysis of the deposited data

Results flagged for a closer look

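Within 30 groups of 5 mice (15 probe sets in each genotype), 4 held a value set far apart from the others by Dixon's ratio of gap to range (critical value 0.71). The nominal share of 5% holds for independent normal values, which values near background and probe sets of the same gene are not. The share over all kept probe sets is not given here, so no excess is read from the 4. The dimmer Trib3 probe set read 5.23 in heterozygous mouse 3 with the next mouse at 4.15, and 4.77 in wildtype mouse 3 with the next at 4.17. The other mice lay close to the background value of that probe set. The brightest Atf4 probe set read 11.7 in wildtype mouse 1 with the nearest at 12.1. Ddit3 read 7.77 in wildtype mouse 3 with the nearest at 7.33.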

How the results depend on the processing

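Under every alternative run for the comparison of genotypes (filters, normalizations, variance prior, array weights, covariates, left-out mice), 0 probe sets and 0 of the other pathway genes passed the adjusted threshold in limma. The median difference of the 9 genes was 0.21 and ranged from 0.022 (without heterozygous mouse 3) to 0.32 when single mice were left out. It was 0.067 with the 3' to 5' gap as a covariate, 0.35 with the acinar mean, 0.38 without heterozygous mice 2 and 5, and 0.15 when all kept probe sets of a gene were averaged. With the replicate number as a block it was 0.21, with 0 calls, and the block changed no call. Trib3, Asns, Chac1, Sesn2 and Psat1 had a higher heterozygous mean and Atf3 a lower one under all 23 alternatives. Among these the filters, the variance prior and the replicate block cannot change a difference of means. Averaging probe sets changes nothing for a gene with 1 kept probe set. In size Asns ran from 0.067 to 0.39, Psat1 from 0.23 to 0.58, Chac1 from 0.012 to 0.92 and Sesn2 from 0.17 to 0.49. The sign turned for Atf4 in 6, for Ddit3 in 3 and for Ddit4 in 1. Of the 36 pairs, 1 passed without centring, with all probe sets per gene and with exact permutation within genotype, and 2 (Chac1 and Ddit4 added) after quantile normalization (2), without heterozygous mouse 3 (1 to 2 over left-out mice) and with the acinar mean removed (2). With the beta cell mean removed 1 passed, Chac1 and Ddit4 (r = 0.920, adjusted permutation p = 0.00072), in place of Asns and Psat1. The r of Asns and Psat1 was 0.942 to 0.972 over left-out mice. Removing the acinar mean, the beta cell mean or the 3' to 5' gap, leaving out heterozygous mice 2 and 5 or mice 3 of both genotypes, and exact permutation were added for the pairs after the data were seen.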

Other observations

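Among genes closest to single members over the 10 mice, with genotype means removed, the closest to Chac1 were Ddx21 (r = 0.952), Slit1 (0.947) and the glycine transporter gene Slc6a9 (0.928). The closest to Asns were Ptger3 (0.990), Kcmf1 (0.990) and Muc1 (0.985), and to Psat1 Slc25a35 (0.985), Rhou (0.977) and Slc41a1 (0.975). For Trib3 they were Nudt2 (0.918), Kirrel3 (0.908) and Ucma (0.866). These genes were chosen after their values were seen, each r is a description over 10 mice, and the best of 18567 probe sets is high by selection.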
